A study of Mus musculus with 12 samples.

Results

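Macrophages that met lipopolysaccharide (LPS, a component of the outer membrane of Gram-negative bacteria) for a second time were compared with macrophages that met it for the first time. The re-exposed side held the 6 arrays of tolerant and recovered cells, 3 each and pooled with equal weight, and the other side the 3 arrays of acute cells, so 9 of the 12 arrays of the series were compared. All cells were bone marrow-derived macrophages of female C57BL/6 mice aged 6 to 8 weeks, grown from marrow for 7 days in medium conditioned by L929 cells, which secrete macrophage growth factor. Tolerant cells had LPS for 8 h, 16 h of rest and LPS for 4 h. Recovered cells had the same 2 exposures with a rest of 88 h in the sample descriptions, where the treatment protocol gives 2 to 4 days. Acute cells had a single exposure of 4 h, and untreated cells (3 arrays) had none. Untreated arrays are shown for orientation and were not compared, but they entered the filter on dim probes and the fit's estimate of spread. All 3 LPS groups were thus sampled 4 h into their last exposure. The dose was not given in the sources used here. The effect of a first exposure and that of longer culture cannot be told apart, because no unexposed cells kept for the same time were analysed here. Each replicate number stood for an independent experiment, and whether each used separate animals was not given. Expression was measured on single-colour Agilent arrays, with 47.8% to 55% of spots called well above background per array; arrays of a group correlated at r from 0.98 to 0.994 across genes.

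LPS is sensed by the Tlr4 receptor complex, which signals through the adaptor Myd88 to NF-kB and MAP kinases and through a second adaptor, Ticam1, to Irf3 and type I interferon. A first exposure leaves macrophages in a changed state known as endotoxin tolerance, in which many cytokine genes respond less to a second exposure while many antimicrobial and lipid genes still respond or respond more. The tolerant state is known to fade with rest, and marks on chromatin, feedback inhibitors and altered metabolism are among the traces known to outlast the stimulus.

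Of 20469 genes tested with experiment number as a block, 6216 (30.4%) differed between re-exposed and acute cells at an adjusted p under 0.05, 3160 higher (15.4%) and 3056 lower (14.9%). The median log2 fold change over all genes was 0.01. Taken separately, 9107 genes differed between tolerant and acute cells (44.5%) and 2199 between recovered and acute cells (10.7%). Both of these comparisons use the same acute arrays, so their values are given side by side below and give no independent support to each other. The test between recovered and tolerant cells does not use the acute arrays, and it called 9233 genes (45.1%).

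The change against acute cells was mostly larger in the tolerant arm, in called genes and in all genes. Among the 6216 called genes the median absolute log2 change against acute cells was 0.77 in tolerant cells and 0.33 in recovered cells, and the tolerant change was the larger in 5046, as it was in 13691 of all 20469 genes, whose medians were 0.37 and 0.21. For 599 of the called genes the arms lay on opposite sides of acute cells, as they did in 8323 of all 20469 genes. The test between rests called 3822 of the 6216 (61.5%), against 45.1% of all genes. Of the 3160 genes called higher, 1721 were lower in recovered than in tolerant cells and 253 were higher. Of the 3056 called lower, 1655 were higher in recovered than in tolerant cells and 193 were lower. Over all genes 19.9% were lower and 25.2% higher in recovered than in tolerant cells. The remaining 2394 genes, 1186 higher and 1208 lower, were not called between the rests, which does not show that the rests were alike in them. All 6 within-experiment differences ran one way in 4048 of the called genes, where 13.8% of all tested genes had all 6 higher and 12.4% had all 6 lower. The calls rest on these same differences, which share the 3 acute arrays, so this count gives them no separate support. In 368 called genes both arms differed from acute cells in the same direction by at least 1 on the log2 scale, as in 382 of all 20469 genes. The pooled count fell to 3417 without acute array 1, 3124 without acute array 2, 3254, 1678 and 3735 without experiments 1, 2 and 3, and 2323 without the block.

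**Figure D1:**
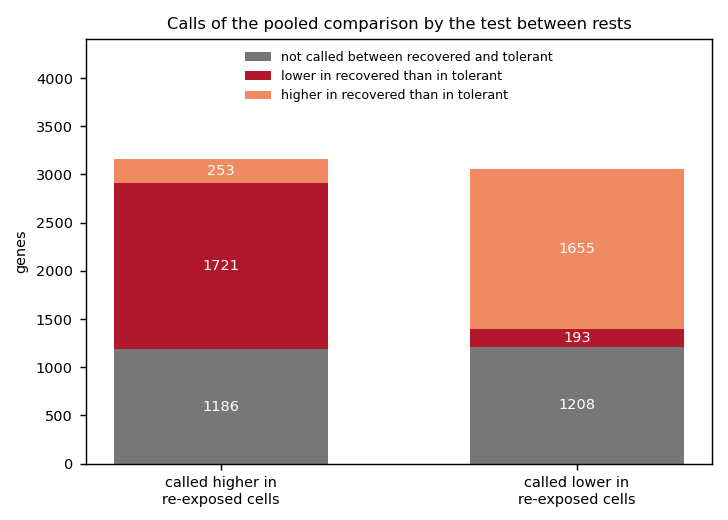
Genes called in re-exposed against acute cells, divided by the test of recovered against tolerant cells; bar height is the number of genes, with the number of each segment printed in it. Most genes called higher (1721 of 3160) were lower in recovered than in tolerant cells, and most called lower (1655 of 3056) were higher in recovered than in tolerant cells, while 1186 and 1208 genes were not called between rests. Over all 20469 genes 19.9% were lower and 25.2% higher in recovered than in tolerant cells, and 11236 genes were not called between rests.

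Genes with the largest rises shared by both rests included surface proteins, acute-phase proteins, protease inhibitors, a cytoskeletal protein and a transcription factor. Cx3cr1, the fractalkine receptor, had log2 intensities of 11.06, 10.86 and 10.46 in tolerant cells, 10.16, 10.43 and 8.12 in recovered cells and 6.92, 6.12 and 6.05 in acute cells (untreated cells 8.07, 7.55 and 7.85). All 6 re-exposed arrays lay above the 3 acute arrays, as they did in 5.2% of all genes (all 6 below in 3.42%), 1 recovered array less so than the others, and acute cells lay below untreated ones. In bulk RNA, fewer cells of a type and less RNA per cell cannot be told apart. The pooled log2 fold change was 3.82 ± 0.35 (SE, adjusted p = 0.000229), made up of 4.43 in the tolerant arm and 3.21 in the recovered arm. Ly6a, which encodes the surface antigen Sca-1, had 11.73, 12.44 and 11.68 in tolerant cells, 10.82, 9.87 and 9.98 in recovered cells and 7.11, 6.67 and 7.23 in acute cells. Its pooled change was 4.08 ± 0.40 (adjusted p = 0.000264), the largest pooled rise among the 12 genes that the naming rule chose, and recovered cells were 1.73 lower than tolerant cells (adjusted p = 0.0152). Ly6c1, a related surface antigen whose probe lay near that of Ly6a on chromosome 15 (74875495 to 74875554, against 74825553 to 74825612, mm9), rose by 3.57 ± 0.25 (adjusted p = 0.000108), by 4.43 in the tolerant and 2.70 in the recovered arm. Genes of the Ly6 family are close in sequence, and whether these probes read other members was not tested. A further gene of the same chromosome, 9030619P08Rik, rose by 3.30 ± 0.32 (adjusted p = 0.000254) and was well above background on 2 of 3 acute arrays.

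Of the next 6 genes, 5 were not called between the rests, and Ctla2a was. Fscn1, the actin-bundling protein fascin, had 10.60, 10.07 and 9.23 in tolerant cells, 9.99, 9.97 and 10.57 in recovered cells, 7.41, 7.24 and 7.55 in acute cells and 4.56, 5.31 and 5.19 in untreated cells. Both re-exposed groups lay above acute cells, tolerant cells by 2.57 ± 0.35 and recovered cells by 2.78 ± 0.35 (pooled adjusted p = 0.000472), and recovered minus tolerant was 0.21 ± 0.35. Antxr1, an anthrax toxin receptor that binds matrix, rose by 2.68 ± 0.21 (adjusted p = 0.000164), with 2.44 in the tolerant and 2.92 in the recovered arm, and it was well above background on 2 of 3 acute arrays. Ms4a4a, a membrane protein of macrophages, rose by 3.01 ± 0.29 (adjusted p = 0.000260). Nhlh1, a helix-loop-helix transcription factor known from neurons, rose by 3.25 ± 0.27 (adjusted p = 0.000164), but only 1 of its 2 probes was called. The Nhlh1 call was lost with the authors' values, on all arrays and on the LPS arrays alone. Cstdc5, a gene of the stefin type of cysteine protease inhibitors, rose by 3.04 ± 0.50 (adjusted p = 0.00252), a call lost without experiment 2 (2.49, adjusted p = 0.0594), and 1 of 3 acute arrays was well above background. Ctla2a, a cysteine protease inhibitor, was the one gene among the 12 called higher in recovered than in tolerant cells, by 1.23 ± 0.34 (adjusted p = 0.0176), and its pooled rise was 2.93 ± 0.30 (adjusted p = 0.000302).

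**Figure D2:**
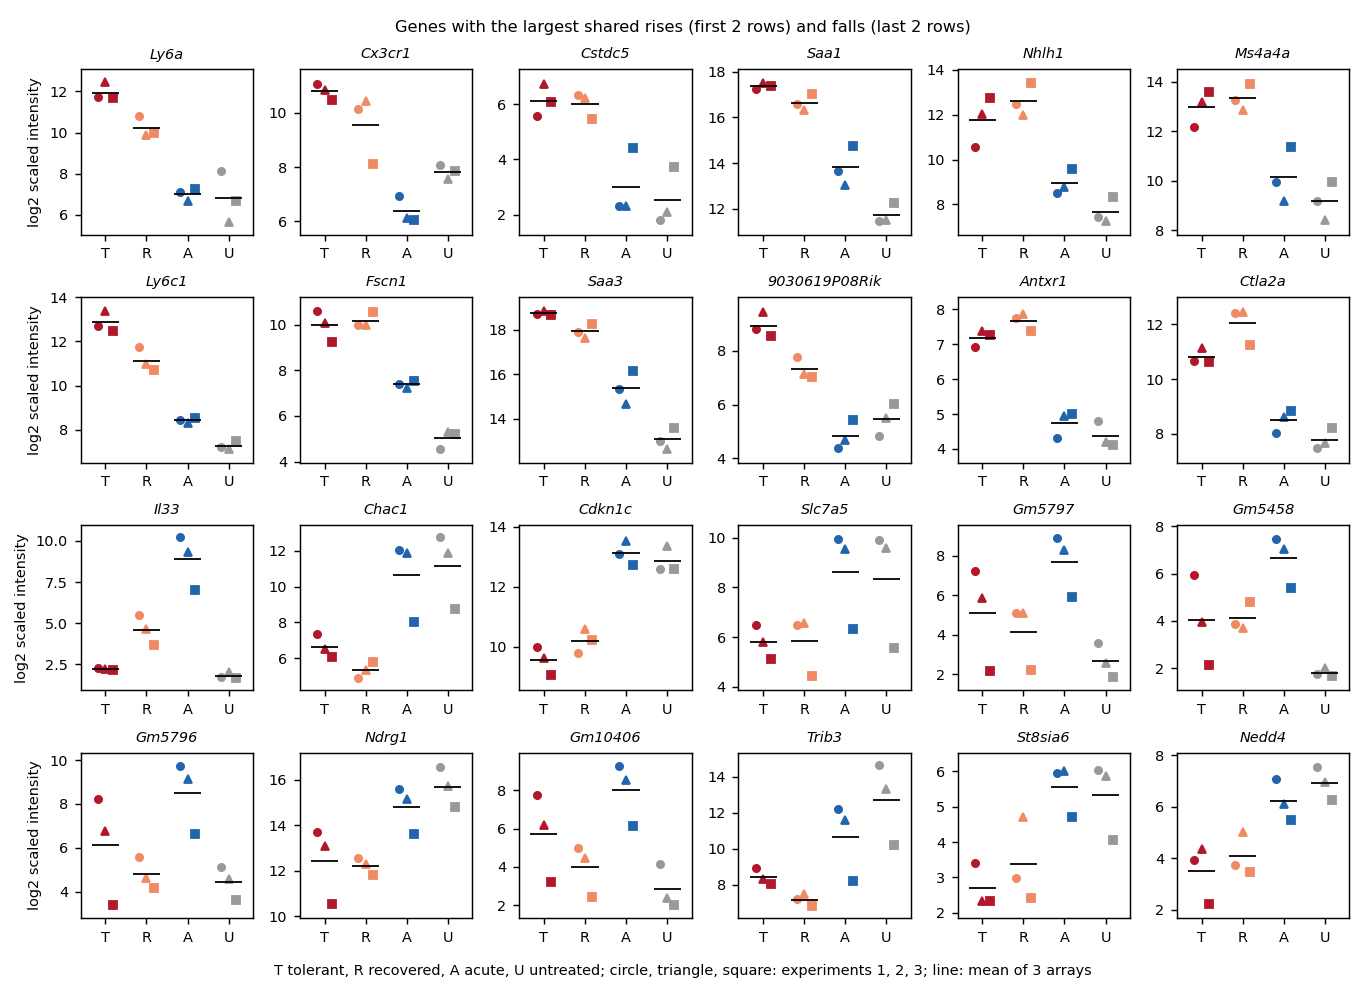
Log2 scaled intensity of the 24 genes with the largest changes shared by both rests, by group in the order tolerant, recovered, acute and untreated; symbols are single arrays shaped by experiment and lines are means of 3 arrays. The first 2 rows hold the 12 rises and the last 2 rows the 12 falls; the square of experiment 3 lies low in the acute and untreated groups of Chac1, Slc7a5 and Trib3, with 8.00 for Chac1 on acute array 3.

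Falls shared by both rests included cytokine, growth control and amino acid stress genes. Il33, an alarmin cytokine of the interleukin 1 family, had 2.27, 2.20 and 2.13 in tolerant cells, 5.47, 4.66 and 3.69 in recovered cells and 10.24, 9.35 and 7.04 in acute cells, against 1.73, 2.00 and 1.64 in untreated cells. No tolerant array and 2 of 3 recovered arrays were well above background, and no re-exposed array reached the lowest acute array. The level was at least 24.5-fold lower in tolerant than in acute cells, and the pooled level at least 19.8-fold lower (adjusted p = 0.000164), a bound that puts each array not well above background at its own signal or, if higher, at the dimmest signal still called above background on that array. In recovered cells the log2 change against acute cells was -4.27 ± 0.51. Cdkn1c, an inhibitor of cyclin-dependent kinases, had 9.97, 9.63 and 9.06 in tolerant cells, 9.77, 10.58 and 10.21 in recovered cells, 13.09, 13.54 and 12.71 in acute cells and 12.58, 13.37 and 12.58 in untreated cells. It fell by 3.25 (log2, SE 0.20; adjusted p = 8.2e-05) and by 3.22, 3.44 and 3.08 in experiments 1, 2 and 3. Acute and untreated cells overlapped in it, and both lay above every re-exposed array.

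Further falls were Ndrg1, a stress-responsive gene that hypoxia is known to induce, by 2.46 (SE 0.33, adjusted p = 0.000957), and by 2.46, 2.47 and 2.45 in experiments 1, 2 and 3. St8sia6, a sialyltransferase, was at least 2.25-fold lower and Nedd4, a ubiquitin ligase, at least 3.35-fold lower (adjusted p = 0.00188 and 0.00112). No tolerant array was well above background for either gene, and 1 of 3 recovered arrays was. The genes Gm5797, Gm5458, Gm5796 and Gm10406 lay on chromosome 14 and had pooled log2 changes of -3.09, -2.58, -3.03 and -3.14. They are predicted genes, Gm5797 and Gm5796 with 2 probes each, all called lower, and Gm5458 and Gm10406 with 1 each. Whether these probes read one another's transcripts was not tested. Gm5458 was not called in recovered against acute cells (adjusted p = 0.0572), and 1 tolerant and 1 recovered array were well above background for it. Without the block their adjusted p was 0.0933 for Gm5797, 0.0655 for Gm5796 and 0.0696 for Gm10406. Without experiment 2 Gm5796 (adjusted p = 0.0621) and Gm5458 (adjusted p = 0.173) were not called, and Gm5458 was also not called without acute array 1 (0.0707) or 2 (0.0800).

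**Figure D3:**
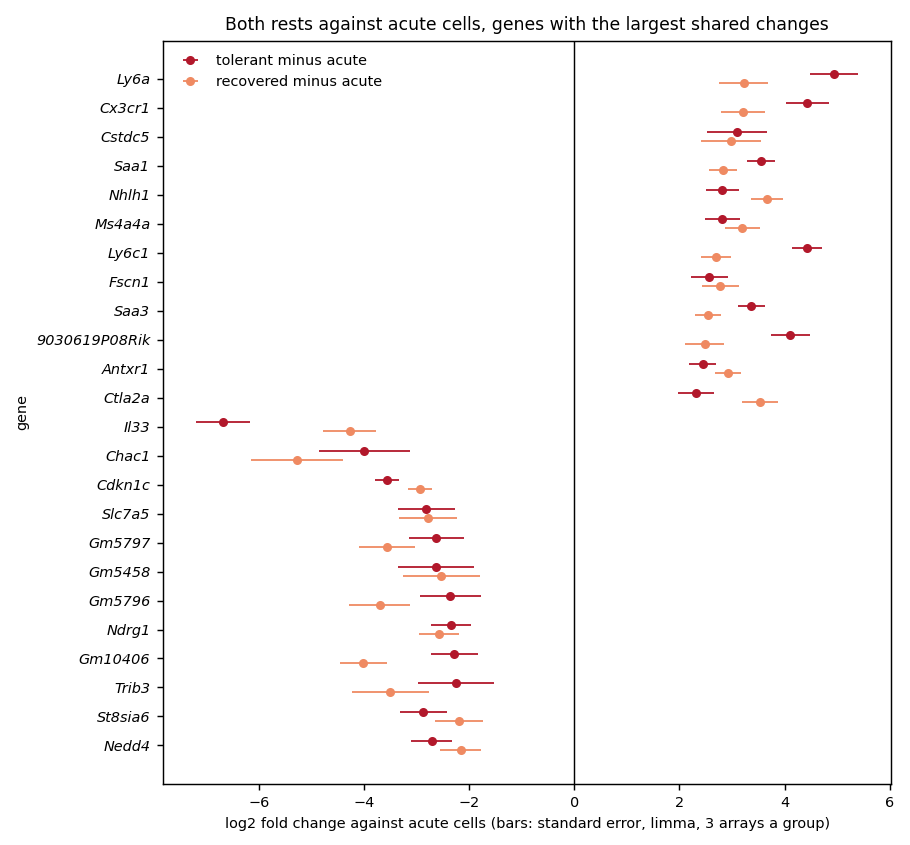
Log2 fold change of tolerant and of recovered cells against acute cells for the 24 genes with the largest shared changes; points are limma estimates, bars standard errors, 3 arrays a group, and both arms use the same acute arrays. The choice of genes fixed that both arms lie on one side of 0; tolerant changes were larger for Ly6a (4.94 against 3.22) and recovered changes larger for Ctla2a (3.54 against 2.31).

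Called falls of the stress response list lay among its integrated stress response members. This list and those below were chosen with earlier results of these data known, so shares over all genes are given for orientation. Of 24 measured members of the unfolded protein and integrated stress responses 11 were lower and 1 higher, where 14.9% and 15.4% of all genes were, and the list's median log2 change was -0.54, with -0.46 in tolerant and -0.63 in recovered cells. The members called lower were Chac1, Trib3, Slc7a5, Phgdh, Asns, Psat1, Psph, Atf5, Ppp1r15a, Atf4 and Sesn2, most of them known as targets of the transcription factor Atf4. In tolerant cells 11 and in recovered cells 6 members were lower than in acute cells (22.9% and 4.75% of all genes). The chaperone and secretory pathway members Hspa5, Hsp90b1, Pdia4, Pdia6, Calr, Dnajb9, Herpud1, Xbp1 and Sdf2l1 were not called. Neither were Vldlr, Slc3a2 and Nupr1, members from the integrated stress response. The member called higher was Ddit3, which encodes the stress factor CHOP. Those not described further are named after their values were seen: Asns, which makes asparagine, changed by -2.52, Phgdh, which starts serine synthesis, by -2.66 and Ddit3 by 0.93 on the log2 scale. Chac1, which degrades glutathione, had 7.33, 6.53 and 6.04 in tolerant cells, 4.90, 5.37 and 5.80 in recovered cells, 12.02, 11.86 and 8.00 in acute cells and 12.74, 11.86 and 8.75 in untreated cells. Every re-exposed array lay below every acute array, and experiment 3 was low in acute and untreated cells alike. The pooled change was -4.63 ± 0.75 (adjusted p = 0.00244), with -5.90, -5.91 and -2.07 in experiments 1, 2 and 3, and it was not called without experiment 2 (-3.99, adjusted p = 0.0677). Trib3, a pseudokinase that restrains Atf4, had 8.89, 8.32 and 8.04 in tolerant cells, 7.21, 7.45 and 6.82 in recovered cells, 12.17, 11.59 and 8.22 in acute cells and 14.63, 13.33 and 10.21 in untreated cells.

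Trib3 changed by -2.87 ± 0.64 (adjusted p = 0.00981), with -4.12, -3.71 and -0.79 in experiments 1, 2 and 3. Its call was lost without the block (adjusted p = 0.0799), without acute array 1 (0.0587) or 2 (0.0613) and without experiment 1 (0.0834) or 2 (0.142). Slc7a5, a transporter of large neutral amino acids, had 6.49, 5.78 and 5.12 in tolerant cells, 6.49, 6.56 and 4.43 in recovered cells, 9.93, 9.55 and 6.33 in acute cells and 9.92, 9.56 and 5.54 in untreated cells. It changed by -2.79 ± 0.48 (adjusted p = 0.00316), and this call too was lost without the block (0.114) and without experiment 1 (0.0517) or 2 (0.0590). The number of list members called lower was 6 without experiment 1, 2 without experiment 2, 14 without experiment 3 and 5 without the block. All replicate 3 arrays shared a slide and a scan day of their own, and the part of either in these values was not tested.

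Promoters of Chac1 and Trib3 are shown because these genes had the largest changes of the list; both are on mouse chromosome 2 (RefSeq, GRCm38.p6, 250 bases before to 50 after the gene start, transcribed strand, 5′ to 3′). Chac1 covers 119350992 to 119351291 on the plus strand and Trib3 152344011 to 152344310 on the minus strand. Capitals mark the amino acid response element TGATGNAA on either strand, a motif bound by Atf4 that was searched after the windows had been read.
Chac1: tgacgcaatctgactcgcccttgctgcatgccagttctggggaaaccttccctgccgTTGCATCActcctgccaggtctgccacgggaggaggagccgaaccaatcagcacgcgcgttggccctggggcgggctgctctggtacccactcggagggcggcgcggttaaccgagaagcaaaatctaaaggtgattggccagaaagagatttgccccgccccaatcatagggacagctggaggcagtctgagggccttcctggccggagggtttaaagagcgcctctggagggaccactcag
Trib3: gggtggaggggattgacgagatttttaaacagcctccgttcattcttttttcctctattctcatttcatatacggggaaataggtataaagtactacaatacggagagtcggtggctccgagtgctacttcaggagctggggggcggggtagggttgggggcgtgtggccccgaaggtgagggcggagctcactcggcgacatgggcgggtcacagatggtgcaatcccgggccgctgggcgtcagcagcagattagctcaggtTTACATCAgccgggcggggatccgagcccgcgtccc
The letters were found 193 bases before the Chac1 start and 14 bases after the Trib3 start, and 3.97% of 32851 mouse promoter windows of this length hold them. Neither window held the other letters searched, on both strands, the E-box CACGTG, AP-1 TGANTCA, CRE TGACGTCA, C/EBP TTNCNNAA, ISRE and NF-kB. Among all windows the E-box was in 7.15%, AP-1 in 7.81%, CRE in 1.79% and NF-kB in 0.411%.

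Antimicrobial and acute-phase genes stood higher in re-exposed cells. Of 24 measured members 14 rose and 0 fell, against 15.4% and 14.9% of all genes, and the median log2 change was 0.66, with 0.71 in tolerant and 0.63 in recovered cells. Against acute cells, 13 members were higher and 5 lower in tolerant cells (21.6% and 22.9% of all genes), and 9 were higher and 0 lower in recovered cells (5.99% and 4.75% of all genes). Saa3, the serum amyloid A protein that macrophages make, had 18.73, 18.86 and 18.67 in tolerant cells, 17.89, 17.63 and 18.28 in recovered cells, 15.36, 14.64 and 16.15 in acute cells and 13.00, 12.64 and 13.59 in untreated cells. The 4 groups did not overlap in it. Its pooled rise was 2.96 ± 0.22 (adjusted p = 0.000136), 3.37 in the tolerant and 2.55 in the recovered arm, and recovered minus tolerant was -0.82 ± 0.25 (adjusted p = 0.0261). Saa1, a serum amyloid A protein best known from liver, had 17.24, 17.50 and 17.37 in tolerant cells, 16.59, 16.31 and 17.04 in recovered cells and 13.67, 13.06 and 14.74 in acute cells. Its rise of 3.19 ± 0.23 (adjusted p = 0.000136) was 3.55 in the tolerant and 2.83 in the recovered arm, but Saa1 and Saa2 are near-identical copies and their probes may read each other.

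Lcn2, which binds bacterial iron carriers, differed from these. Its levels were 13.72, 13.71 and 14.82 in tolerant cells, 11.02, 10.94 and 12.83 in recovered cells and 11.12, 9.08 and 10.44 in acute cells. Tolerant cells lay above both others, and recovered cells overlapped acute cells. The pooled rise was 2.62 ± 0.53 (adjusted p = 0.00646), yet recovered cells were not called against acute cells (1.38, adjusted p = 0.174) and recovered minus tolerant was -2.49 (adjusted p = 0.0103). The pooled call was lost without experiment 2 (2.32, adjusted p = 0.115), without which 6 members of the list were called higher in place of 14. The Lcn2 call was also lost with the authors' values, on all arrays and on the LPS arrays alone. Camp, an antimicrobial peptide that neutrophils also store, rose by 1.10 ± 0.18 (adjusted p = 0.00287), and it too was not called without experiment 2 (adjusted p = 0.0724). Nos2, which makes nitric oxide, was not called, with -0.61 ± 0.25 (adjusted p = 0.0914), and was 1.60 higher in recovered than in tolerant cells (adjusted p = 0.00228).

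Promoters of Saa1 and Saa3 are shown because both rose in each arm and lie close together on chromosome 7 (minus strand, 46742931 to 46743230 for Saa1 and 46715627 to 46715926 for Saa3, GRCm38.p6, RefSeq). Capitals mark the C/EBP letters TTNCNNAA on either strand and, in Saa3, the letters of an ISRE, an interferon-stimulated response element, which overlap a C/EBP match.
Saa1: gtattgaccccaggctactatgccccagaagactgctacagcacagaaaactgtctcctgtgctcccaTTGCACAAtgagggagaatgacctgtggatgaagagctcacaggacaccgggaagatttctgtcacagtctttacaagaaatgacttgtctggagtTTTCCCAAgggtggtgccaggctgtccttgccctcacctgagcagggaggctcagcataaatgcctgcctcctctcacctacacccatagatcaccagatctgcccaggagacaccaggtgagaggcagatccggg
Saa3: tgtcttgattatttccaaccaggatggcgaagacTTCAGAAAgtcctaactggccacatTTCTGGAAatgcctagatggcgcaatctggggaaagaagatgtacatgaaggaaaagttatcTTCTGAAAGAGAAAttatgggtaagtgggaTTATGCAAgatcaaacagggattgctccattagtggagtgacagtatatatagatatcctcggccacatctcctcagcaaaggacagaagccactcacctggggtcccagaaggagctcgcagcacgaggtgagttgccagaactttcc
C/EBP letters stood 182 and 86 bases before the Saa1 start and 216, 191, 129 and 99 bases before the Saa3 start, and 40.7% of the 32851 promoter windows hold at least one match. The ISRE letters stood 125 bases before the Saa3 start and are found in 3.44% of windows. Neither window held the E-box, AP-1, CRE, NF-kB or amino acid response letters.

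Cytokines went lower as a list, mostly through the tolerant arm. Of 21 measured members 12 were lower and 2 higher, against 14.9% and 15.4% of all genes, with a median of -0.53. The lower calls were 4 to 12 over the alternatives. The median was -1.09 in tolerant but 0.02 in recovered cells. Against acute cells 2 members were higher and 12 lower in tolerant cells (21.6% and 22.9% of all genes). Recovered cells had 3 members higher and 3 lower than acute cells (5.99% and 4.75% of all genes). In recovered cells 13 members were higher than in tolerant cells, and 2 were lower (25.2% and 19.9% of all genes). Ifnb1, the type I interferon that LPS induces, was low in both arms. It had 9.76, 8.72 and 7.90 in tolerant cells, 13.22, 11.87 and 11.41 in recovered cells, 14.68, 14.46 and 12.50 in acute cells and 2.01, 2.22 and 2.03 in untreated cells. Tolerant cells lay far below acute cells, and recovered cells overlapped them but were lower in each experiment. The pooled change was -3.40 ± 0.35 (adjusted p = 0.000314), with -5.08 in tolerant and -1.71 in recovered cells (adjusted p = 0.0283 for recovered against acute cells). Il10, an anti-inflammatory cytokine, had 9.02, 8.32 and 8.25 in tolerant cells, 10.09, 9.30 and 9.77 in recovered cells and 11.51, 10.47 and 10.32 in acute cells. No re-exposed array reached an acute array. The pooled change was -1.64 ± 0.17 (adjusted p = 0.000363), and it was -2.24 in tolerant and -1.05 in recovered cells.

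Il1b, which encodes the precursor of interleukin 1 beta, went the other way. Its levels were 14.08, 15.22 and 13.85 in tolerant cells, 14.87, 14.09 and 14.16 in recovered cells and 12.82, 12.68 and 12.66 in acute cells, so that every re-exposed array lay above every acute array. The rise was 1.66 ± 0.31 (adjusted p = 0.00493) and was 1.66 in the tolerant and 1.65 in the recovered arm. Tnf and Il6, the main early inflammatory cytokines, and Il12b, a subunit of interleukin 12 and 23, were called lower in the pooled comparison through tolerant cells. Tnf changed by -2.03 in tolerant and 0.05 in recovered cells and Il6 by -2.27 and 0.07, with recovered cells above tolerant cells by 2.08 (adjusted p = 8.31e-05) and 2.34 (adjusted p = 0.000856). Il12b changed by -2.12 in tolerant and -0.99 in recovered cells, the second not called (adjusted p = 0.106). The pooled Il6 call (-1.10 ± 0.30, adjusted p = 0.0221) was lost without acute array 2 (adjusted p = 0.0984) or 3 (0.109), without experiment 2 (0.105) or 3 (0.114), and with the slide as a block (0.0590) or without a block (0.237). The Il6 call was also lost with the authors' values and with no filter on dim probes. The pooled Il12b call (-1.56 ± 0.31, adjusted p = 0.00612) was lost without experiment 2 (0.0566) or 3 (0.0535).

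**Figure D4:**
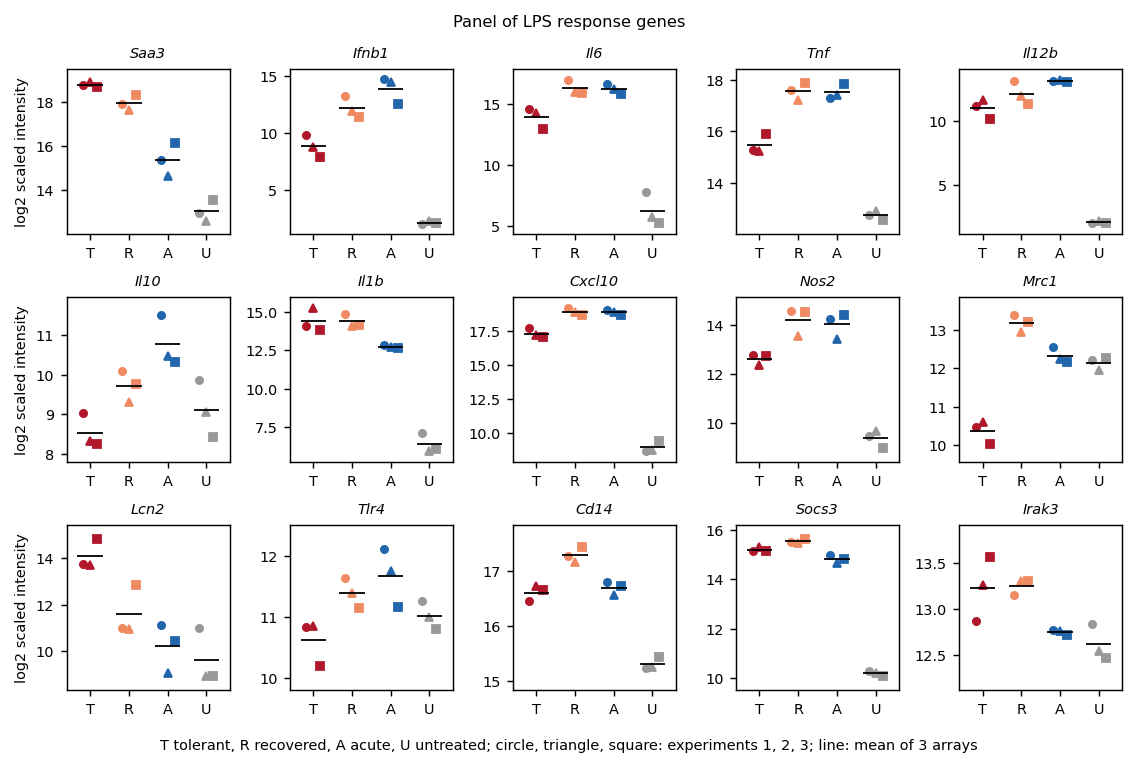
Log2 scaled intensity of 15 LPS response genes by group in the order tolerant, recovered, acute and untreated; symbols are single arrays shaped by experiment and lines are means of 3 arrays. Il1b lies above acute cells on all 6 re-exposed arrays (13.85 to 15.22, against 12.66 to 12.82), whereas Tnf, Il6 and Cxcl10 lie below acute cells in the tolerant group and overlap them in the recovered group.

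Chemokines were divided. Of 19 measured members 4 were higher and 7 lower, against 15.4% and 14.9% of all genes, with a median of -0.18. Against acute cells 5 were higher and 11 lower in tolerant cells (21.6% and 22.9% of all genes). In recovered cells 5 were higher and 0 lower (5.99% and 4.75%). Cxcl3, which attracts neutrophils, had 11.76, 12.28 and 12.70 in tolerant cells, 11.34, 11.84 and 12.56 in recovered cells and 10.40, 9.78 and 10.12 in acute cells. It rose without overlap by 1.98 ± 0.31 (adjusted p = 0.00206), by 2.15 in the tolerant and 1.81 in the recovered arm. Ccl12, which attracts monocytes, had 12.19, 11.24 and 10.64 in tolerant cells, 14.79, 13.70 and 13.91 in recovered cells and 15.20, 14.22 and 14.29 in acute cells. Its pooled change of -1.83 ± 0.16 (adjusted p = 0.000213) was -3.22 in tolerant and -0.44 in recovered cells, the second not called (adjusted p = 0.168). Cxcl10, an interferon-induced chemokine, changed by -1.57 in tolerant and 0.04 in recovered cells. Its pooled call (-0.76 ± 0.20, adjusted p = 0.0200) was lost without acute array 1 (0.0842) or 2 (0.0932) and without experiment 2 (0.173). The Cxcl10 call was also lost with the authors' values and with no filter on dim probes.

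Interferon response genes were mostly lower, and the arms parted in them. Of 46 measured members 32 were lower and 1 higher in the pooled comparison, against 14.9% and 15.4% of all genes, with a median of -0.67. The lower calls were 8 to 35 over the alternatives, with 24 without experiment 2. The median was -1.32 in tolerant cells, with 40 lower and 0 higher (22.9% and 21.6% of all genes). It was -0.05 in recovered cells, with 0 lower and 1 higher (4.75% and 5.99%). Recovered cells were above tolerant cells in 42 of the 46 and below them in 0 (25.2% and 19.9% of all genes). Cmpk2, a nucleotide kinase of the antiviral response, had 14.80, 14.15 and 14.44 in tolerant cells, 17.61, 17.12 and 17.24 in recovered cells and 17.59, 17.41 and 17.27 in acute cells. Its pooled change of -1.53 ± 0.12 (adjusted p = 0.000164) thus averaged -2.96 and -0.10. Ifit2, which binds viral RNA, changed by -1.50 ± 0.13 (adjusted p = 0.000174), with -2.70 in tolerant and -0.31 in recovered cells. A pooled call of these genes is therefore not a change that both rests passed.

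Sensing and feedback lists had more members lower than higher. Of 35 toll-like receptor complex and signalling genes 4 were higher and 9 lower, against 15.4% and 14.9% of all genes, and the median was -0.10. The 4 higher calls were 0 without the block, acute array 3, experiment 1 or experiment 2 and 1 without acute array 1 or 2 or experiment 3, and the 9 lower calls were 3 without the block and 4 without experiment 2. Tlr4, the LPS receptor, had 10.83, 10.85 and 10.19 in tolerant cells, 11.63, 11.38 and 11.14 in recovered cells and 12.11, 11.74 and 11.16 in acute cells. The pooled change of -0.67 ± 0.11 (adjusted p = 0.00270) was -1.04 in tolerant cells and -0.29 in recovered cells, where it was not called (adjusted p = 0.175), and without the block the pooled adjusted p was 0.0913. Cd14, the co-receptor that delivers LPS, was not called in the pooled comparison (0.25 ± 0.10, adjusted p = 0.0800), while recovered cells were 0.59 above acute cells (adjusted p = 0.0128). Rel, an NF-kB subunit, and Tlr3, the receptor for double-stranded RNA, changed by -1.01 ± 0.16 and -0.78 ± 0.11, by -1.87 and -1.71 in tolerant cells and by -0.15 and 0.16 in recovered cells. Without the block Rel was not called (adjusted p = 0.0676).

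Of 27 feedback inhibitors 6 were higher and 9 lower, against 15.4% and 14.9% of all genes, with a median of -0.15, and the higher calls were 3 without the block or acute array 1, 2 without acute array 2 and 1 without experiment 2. Cish, a SOCS family inhibitor of cytokine receptors, had 7.62, 7.40 and 6.62 in tolerant cells, 9.73, 9.56 and 9.23 in recovered cells and 10.80, 11.05 and 9.95 in acute cells. It fell without overlap by 2.24 (log2, SE 0.15; adjusted p = 8.2e-05), with -3.39 in tolerant and -1.09 in recovered cells. Atf3, a repressor of LPS-induced genes, fell by 1.32 (SE 0.17, adjusted p = 0.000765), with -1.59 in tolerant and -1.05 in recovered cells. Socs3, which restrains interleukin 6 signalling, had 15.14, 15.30 and 15.14 in tolerant cells, 15.52, 15.49 and 15.64 in recovered cells and 14.97, 14.66 and 14.83 in acute cells. The rise of Socs3 was small but without overlap, 0.55 ± 0.10 (adjusted p = 0.00422), and it was not called without experiment 2 (0.46, adjusted p = 0.0825). Nor was it called with the authors' values. Irak3, an IRAK family inhibitor known from tolerance, had 12.87, 13.26 and 13.56 in tolerant cells, 13.15, 13.30 and 13.30 in recovered cells and 12.77, 12.76 and 12.72 in acute cells. Its change of 0.49 ± 0.15 (adjusted p = 0.0325) did not hold in 11 of the 27 alternatives, among them the removal of each acute array (adjusted p = 0.0814, 0.110 and 0.127), of tolerant array 2 (0.0644) or 3 (0.0522), of recovered array 2 (0.0652) or 3 (0.0544), and of experiment 2 (0.214) or 3 (0.148).

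**Figure D5:**
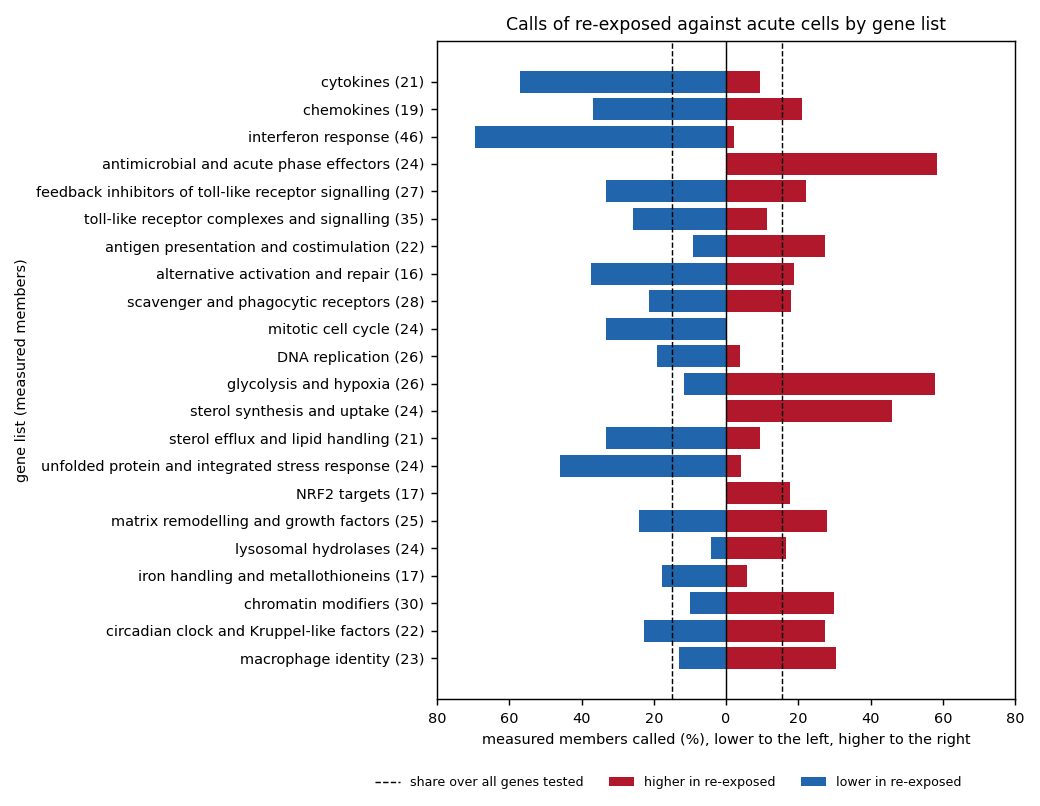
Share of the measured members of each gene list called higher (right) or lower (left) in re-exposed against acute cells, with the number of members in brackets and dashed lines at the shares over all genes, 15.4% higher and 14.9% lower. Interferon response genes lay mostly to the left (32 of 46), and antimicrobial (14 of 24), glycolysis and hypoxia (15 of 26) and sterol synthesis genes (11 of 24) to the right. The lists were chosen with earlier results of these data known, so the dashed lines serve for orientation.

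Metabolic lists differed in direction. Of 26 glycolysis and hypoxia genes 15 were higher and 3 lower, against 15.4% and 14.9% of all genes. The median was 0.35 (0.60 in tolerant and 0.10 in recovered cells). Recovered cells were below tolerant cells in 17 and above them in 1 (19.9% and 25.2% of all genes). Ankrd37, a target of the hypoxia factor Hif1a, had 8.76, 9.52 and 8.96 in tolerant cells, 6.10, 6.48 and 6.33 in recovered cells and 4.71, 5.25 and 5.36 in acute cells. The rise of 2.59 ± 0.15 (adjusted p = 8.2e-05) was 3.98 in the tolerant and 1.20 in the recovered arm, without overlap with acute cells. The 3 members that fell were Ndrg1, described above, Pfkp, a phosphofructokinase (-1.43), and Hk2, a hexokinase (-0.82), the last pair named after their values were seen. The number of members called higher was 8 without experiment 2 and 9 without the block.

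Sterol synthesis and uptake genes rose as 11 of 24 members with 0 lower, against 15.4% and 14.9% of all genes. The median of 0.49 was 0.73 in tolerant and 0.34 in recovered cells. Of the 11, 8 were not called between rests, as were 11236 of all 20469 genes. The lack of a call does not show that the rests were alike in these 8. Fdft1, which makes squalene, had 10.29, 10.51 and 11.51 in tolerant cells, 10.02, 10.23 and 10.83 in recovered cells and 9.37, 9.66 and 9.58 in acute cells, with no overlap. It rose by 1.03 ± 0.17 (adjusted p = 0.00287), though only 1 of its 2 probes was called. Mvd, an enzyme of the mevalonate pathway, rose by 0.94 ± 0.18 (adjusted p = 0.00509), with 1.56 in tolerant and 0.31 in recovered cells, the second not called (adjusted p = 0.352), and without the block the pooled adjusted p was 0.0931. The list had 6 members called higher without experiment 2.

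Among 21 sterol efflux and lipid handling genes 2 were higher and 7 lower, against 15.4% and 14.9% of all genes (median -0.19). Mgll, which breaks down monoacylglycerols, had 8.47, 8.08 and 8.26 in tolerant cells, 10.86, 11.10 and 10.82 in recovered cells, 11.85, 12.03 and 12.27 in acute cells and 11.78, 12.12 and 12.49 in untreated cells. It fell without overlap by 2.45 (log2, SE 0.16; adjusted p = 8.2e-05). Scd1, a fatty acid desaturase, had 9.38, 9.12 and 5.74 on the acute arrays, so experiment 3 again stood low, and its pooled change of -2.15 ± 0.58 (adjusted p = 0.0219) was 0.00 within experiment 3. The Scd1 call was lost without acute array 1 (adjusted p = 0.121) or 2 (0.116), without experiment 1 (0.190) or 2 (0.219), without the block (0.121) and with no filter on dim probes (0.0591). Of 17 NRF2 targets, genes of the antioxidant response, 3 were higher and 0 lower, a share near the 15.4% of all genes (median 0.32, with 0.52 in tolerant and 0.06 in recovered cells). The count was 1 without the block, without acute array 2 and without experiment 1 or 2. Osgin1, one of them, rose by 1.49 ± 0.14 (adjusted p = 0.000229), by 2.37 in the tolerant and 0.61 in the recovered arm.

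Surface and matrix genes gave some of the largest changes without a one-sided list. Of 25 matrix remodelling and growth factor genes 7 were higher and 6 lower, against 15.4% and 14.9% of all genes (median -0.09). Tgfbi, an adhesion protein that TGF beta induces, had 16.94, 16.81 and 16.49 in tolerant cells, 14.78, 14.83 and 13.62 in recovered cells and 13.32, 12.76 and 11.48 in acute cells. It rose by 3.06 ± 0.20 (adjusted p = 8.2e-05), by 4.23 in the tolerant and 1.89 in the recovered arm, and the 3 LPS groups did not overlap. Hbegf, a growth factor of the EGF family, fell by 2.17 (log2, SE 0.31; adjusted p = 0.00129). Of 28 scavenger and phagocytic receptors 5 were higher and 6 lower, against the same shares of all genes, 15.4% and 14.9% (median -0.09). Tyro3, a receptor for apoptotic cells, fell by 2.04 (SE 0.15, adjusted p = 0.000136), with -3.34 in tolerant and -0.75 in recovered cells. Only 1 of the 2 Tyro3 probes was called. Cd5l, a secreted scavenger protein of macrophages, fell by 1.10 (SE 0.17, adjusted p = 0.00186), with -1.05 in tolerant and -1.15 in recovered cells.

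Of 22 antigen presentation and costimulation genes 6 were higher and 2 lower, against 15.4% and 14.9% of all genes, with a median of 0.14. Cd86, a costimulatory ligand for T cells, had 10.65, 10.61 and 9.49 in tolerant cells, 11.97, 11.33 and 11.25 in recovered cells, 14.15, 13.72 and 12.04 in acute cells and 10.68, 9.62 and 8.75 in untreated cells. No re-exposed array reached the acute arrays, and it fell by 2.42 (log2, SE 0.25; adjusted p = 0.000329), with -3.05 in tolerant and -1.79 in recovered cells. H2-Ab1, a chain of MHC class II, had all 6 within-experiment differences higher and a rise of 0.93 ± 0.18 (adjusted p = 0.00619). That call was lost without experiment 2 (0.117) or 3 (0.0805) and without the block (0.278).

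Alternative activation and repair genes had 3 of 16 members higher and 6 lower, against 15.4% and 14.9% of all genes (median -0.17). Myc, a growth regulator, fell by 1.15 (SE 0.19, adjusted p = 0.00288), with -1.02 in tolerant and -1.28 in recovered cells, and was not called without the block (0.136) or experiment 1 (0.0515). Klf4, a transcription factor of the alternative programme, changed by -2.12 in tolerant and -0.16 in recovered cells (pooled -1.14 ± 0.12, adjusted p = 0.000338). For Mrc1, the mannose receptor, the arms lay on opposite sides of acute cells. It had 10.46, 10.60 and 10.02 in tolerant cells, 13.39, 12.95 and 13.19 in recovered cells and 12.55, 12.23 and 12.15 in acute cells, so that the pooled -0.54 ± 0.14 (adjusted p = 0.0195) averaged -1.95 and 0.87, each called on its own (adjusted p = 3.87e-05 and 0.0124). That pooled call was lost without acute array 1 (0.0984) or 2 (0.0762), without experiment 1 (0.139), 2 (0.0633) or 3 (0.0544), without the block (0.0620) and with no filter on dim probes (0.0528). It was also lost with the authors' values, on all arrays and on the LPS arrays alone.

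Mitotic genes were lower through the tolerant arm. Of 24 members 8 were lower and 0 higher in the pooled comparison, against 14.9% and 15.4% of all genes. The median was -0.36, with -0.87 in tolerant and 0.19 in recovered cells. Recovered cells were above tolerant cells in 20 and below them in 0 (25.2% and 19.9% of all genes). Cenpe, a kinetochore motor, changed by -1.67 in tolerant and -0.08 in recovered cells, and its pooled call (-0.87 ± 0.12, adjusted p = 0.000958) did not hold without the block (0.0629). Of 26 DNA replication genes 1 was higher and 5 were lower, the second near the 14.9% of all genes (median -0.08), among them Rfc3, a clamp loader subunit, which changed by -1.25 in tolerant and -0.10 in recovered cells. Without the block 2 mitotic genes were called lower, and 4 without experiment 2.

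Chromatin modifiers had a median of 0.01, with 9 of 30 members higher and 3 lower, against 15.4% and 14.9% of all genes. Of these 12, 7 were not called between rests, as were 11236 of all 20469 genes. The higher calls were 4 without any 1 experiment, and the lower calls 0 without the block. Hdac7, a class II histone deacetylase, had 10.26, 11.49 and 11.94 in tolerant cells, 11.66, 11.36 and 12.24 in recovered cells, 9.35, 9.34 and 9.92 in acute cells and 10.35, 10.11 and 10.54 in untreated cells. It rose without overlap by 1.95 ± 0.24 (adjusted p = 0.000698), by 1.69 in the tolerant and 2.21 in the recovered arm. Ehmt1, a histone H3 lysine methyltransferase, rose by 1.50 ± 0.34 (adjusted p = 0.0103), a call lost without acute array 3 (0.0561) or experiment 3 (0.112). That call was lost with the authors' values as well. Of 22 clock and Kruppel-like genes 6 were higher and 5 lower, against 15.4% and 14.9% of all genes (median 0.03). Nfil3, a repressor of clock output and of interleukin 12, fell by 1.82 (SE 0.28, adjusted p = 0.00186), with -2.03 in tolerant and -1.61 in recovered cells.

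Iron genes had 1 of 17 members higher and 3 lower (median 0.00), and lysosomal hydrolases 4 of 24 higher and 1 lower (median 0.07). Over all genes 15.4% were higher and 14.9% lower. Slc39a14, a zinc and iron importer, rose by 1.03 ± 0.18 (adjusted p = 0.00380), and Tfrc, the transferrin receptor, fell by 1.03 (SE 0.13, adjusted p = 0.000882). Slc39a14 was not called without experiment 2 (adjusted p = 0.0721). Among the hydrolases Ctsk, cathepsin K, fell by 1.26 (SE 0.12, adjusted p = 0.000275) and Ctsh, cathepsin H, rose by 0.79 ± 0.11 (adjusted p = 0.00130). Both were called in each arm, and recovered cells lay between tolerant and acute cells.

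Macrophage markers were bright in every group, with summed log2 levels of 20.62 to 20.93 in tolerant, 20.81 to 21.09 in recovered, 20.58 to 20.90 in acute and 20.53 to 20.62 in untreated cells. Of 23 measured members 7 were higher and 3 lower, against 15.4% and 14.9% of all genes (median 0.11). Irf8, a transcription factor of the lineage that LPS is known to induce, had 13.17, 13.14 and 13.09 in tolerant cells, 14.23, 13.63 and 13.92 in recovered cells, 15.66, 15.42 and 14.99 in acute cells and 13.54, 13.71 and 13.62 in untreated cells. It fell by 1.83 (log2, SE 0.15; adjusted p = 0.000164) without overlap.

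Markers of other cell types are given as summed log2 levels. Summed levels were 15.38 to 15.85 in tolerant, 15.44 to 15.88 in recovered and 15.24 to 16.24 in acute cells for 5 neutrophil markers. For 6 lymphocyte markers they were 12.94 to 13.05, 13.21 to 13.37 and 13.12 to 13.32 in the same 3 groups, and for 5 dendritic cell markers 16.44 to 16.60, 16.52 to 16.66 and 16.37 to 16.92. Fscn1, described above, belongs to the dendritic cell list, of which 1 of 5 rose and 2 fell. Erythroid and platelet markers summed to 13.54 to 14.64 in tolerant, 15.11 to 15.65 in recovered and 13.06 to 14.03 in acute cells, mostly through Pf4, platelet factor 4, which rose by 1.38 ± 0.15 (adjusted p = 0.000455). Gp9, a platelet glycoprotein of the same list, was at least 3.63-fold lower in the pooled comparison (adjusted p = 0.000405) and at least 5.13-fold lower in recovered than in acute cells, with no recovered array well above background. Mast cell markers summed to 8.87 to 9.81 in tolerant, 11.35 to 11.60 in recovered and 11.11 to 11.66 in acute cells, mostly through Hdc, which makes histamine. Stromal markers summed to 9.65 to 9.89, 9.39 to 9.90 and 8.98 to 9.54 in tolerant, recovered and acute cells. Among lymphocyte, neutrophil and mast cell markers 0 of 6, 1 of 5 and 0 of 4 rose, and 1, 0 and 3 fell. Among stromal markers 2 of 6 rose and 1 fell, and among erythroid and platelet markers 2 of 5 rose and 1 fell. Over all genes 15.4% rose and 14.9% fell. The part of these markers in the results was not tested.

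The genes with the widest gap between rests show what the pooled average can hide. Bmf, which promotes cell death, had 7.11, 7.04 and 7.18 in tolerant cells, 2.04, 2.07 and 3.13 in recovered cells, 2.06, 2.80 and 2.89 in acute cells and 9.23, 8.74 and 8.86 in untreated cells. It was not well above background on any recovered or acute array, and tolerant cells were at least 6.57-fold above recovered and at least 8.03-fold above acute cells. Mgarp, a mitochondrial protein known from hypoxia, and Adgrg1, an adhesion receptor, were likewise not well above background on any recovered or acute array, and tolerant cells were at least 7.52-fold and 6.27-fold above recovered cells. Untreated cells were the highest for Bmf, whereas 0 untreated arrays were well above background for Mgarp and 1 for Adgrg1. Raver2, an RNA-binding protein, had 11.77, 11.19 and 8.92 in tolerant cells, 7.91, 6.85 and 2.48 in recovered cells and 11.73, 11.49 and 9.81 in acute cells. Here tolerant cells overlapped acute cells and recovered cells alone were low (recovered against acute -5.26 ± 0.62, adjusted p = 0.00213). In the pooled comparison only 1 of the 2 Raver2 probes was called.

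In the opposite direction Lhx2, a homeobox factor, had 9.62, 8.68 and 8.48 in tolerant cells, 12.83, 12.47 and 12.72 in recovered cells, 13.01, 12.18 and 12.67 in acute cells and 3.08, 2.64 and 3.89 in untreated cells. Its change against acute cells was -3.69 in tolerant and 0.06 in recovered cells. The pooled Lhx2 call was lost with the authors' values, on all arrays and on the LPS arrays alone. Pax4 and Angpt1, a homeobox factor and a ligand of the receptor Tek, were not well above background on any tolerant array, and recovered cells were at least 7.03-fold and 3.70-fold above them. Tnfaip6, a hyaluronan-binding protein that Tnf induces, was at least 11.9-fold lower in tolerant than in acute cells and at least 6.08-fold lower in the pooled comparison (adjusted p = 0.000927). Recovered cells were at least 3.86-fold above tolerant cells in Tnfaip6, and they were not called against acute cells (-1.63 ± 0.51, adjusted p = 0.0741).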

How the data were processed

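The members and the gene lists were chosen with earlier results of these data known. Per the labels, 200 ng of total RNA per sample was labelled with Cy3. Per the file headers, the deposited spot intensity is Agilent Feature Extraction 10.7.3.1 processed signal, background subtracted within each array, with probe positions on mm9. The deposited matrix holds the authors' log2 values (median 5.34 in every column; scale and lack of centring taken from the values); the submitters' processing notes name limma with no version, and background correction and normalization are not given in the sources used here. Each of its 12 columns matched its own array best (r at least 0.974). Direction is settled by the single colour.

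Log2 intensity was scaled to the 75th percentile of each array's non-control spots (8.04 to 9.38). Of 55681 probes 118 were removed as outliers, and 28056 were kept because all 3 arrays of a group were well above background. The brightest probe stood for each of 20469 genes (5345 with several probes, of which 37 had probes called in opposite directions). The reference (GRCm38.p6, for names alone) held 14266 of them; the rest were 2763 lincRNA loci and 3440 other names. Exons and UTRs at the probes were not analysed here. No spot was saturated (0).

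All 12 arrays were fitted with limma 3.58.1 in R 4.3.3, with 4 group terms and experiment number as a fixed block (6 residual and 3.18 prior degrees of freedom, median residual SD 0.178). Tests were two-sided with Benjamini-Hochberg adjustment over all genes. The block rests on the labels, which call the replicates independent experiments, and on the 18 pairs of arrays with the same number, whose deviations from group means correlated at r from 0.275 to 0.773. Replicate 3 of all groups lay on 1 slide scanned on a second day; other slides held replicate 1 of all groups but recovered cells, and replicate 2 with recovered replicate 1. The script was tested on simulated data. A change is a difference of log2 values ± its SE, with n = 3 arrays per group. A bound ("at least") was given where a group had no array well above background.

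Named genes were the 12 largest rises and 12 largest falls by the smaller arm, called and alike in all 6 within-experiment differences; up to 2 called members of each of 28 lists; a panel of 16 genes, of which Arg1 did not pass the filter; and the genes with the largest gaps between rests. Promoters came from RefSeq tables, in which 18 of the 24 largest changes had a sequence. Figures were drawn with matplotlib 3.10.9 in Python 3.11.15 (numpy 2.4.6, pandas 2.3.3). Alternatives were another block or none, other arrays, scaling, background, filter or probe rule, the authors' values, and leaving out each array or experiment.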

Additional observations from a re-analysis of the deposited data

Results flagged for a closer look

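Recovered and tolerant cells differed in 63 of the 91 named genes (limma, adjusted p under 0.05, against 45.1% of all genes), 40 higher and 23 lower in recovered cells. The 91 include 8 genes chosen for their gap between rests, and others chosen by list or size, so the count is not read against that share. Values are recovered minus tolerant on the log2 scale, fitted, and not bounds where a group was below background. Among the genes with large shared rises the difference was -1.73 for Ly6a, -1.22 for Cx3cr1, -0.73 for Saa1, -1.72 for Ly6c1, -0.82 for Saa3, -1.62 for 9030619P08Rik and 1.23 for Ctla2a. Among the shared falls it was 2.41 for Il33 (at least 1.27-fold) and -1.73 for Gm10406.

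Recovered cells were higher in cytokine and chemokine genes, by 3.37 for Ifnb1, 2.34 for Il6, 2.08 for Tnf, 1.13 for Il12b, 1.19 for Il10, 2.78 for Ccl12 and 1.61 for Cxcl10. The same held for the antiviral genes Cmpk2 (2.85) and Ifit2 (2.39), for the sensing and feedback genes Rel (1.72), Tlr3 (1.87), Tlr4 (0.76), Cd14 (0.68), Cish (2.30), Atf3 (0.54) and Socs3 (0.36), and for Nos2 (1.60).

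Surface and regulatory genes higher in recovered cells were Cd86 (1.27), Klf4 (1.96), Tyro3 (2.59), Mrc1 (2.82), Irf8 (0.79), Hbegf (1.67), Tfrc (1.37), Ctsk (1.39), Mgll (2.66), Pf4 (1.23), Kit (0.97), Hdc (2.85) and Fbn1 (3.42, at least 3.63-fold). Cell cycle genes were higher as well, by 0.96 for Ttk, below background in both groups, 1.59 for Cenpe, 1.43 for Mcm10 and 1.14 for Rfc3. The widest gaps upward were 4.18 for Pax4, 3.81 for Angpt1, 3.75 for Lhx2 and 3.52 for Tnfaip6.

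Recovered cells were lower in Lcn2 (-2.49), Camp (-0.59), Ankrd37 (-2.78), Mvd (-1.25), Scd1 (-1.88), Osgin1 (-1.76), Tgfbi (-2.34), Ctsh (-0.57), Per2 (-1.76, at least 1.17-fold), Cd79b (-2.41), Batf3 (-1.78) and Gp9 (-2.37, at least 1.99-fold). The widest gaps downward were -4.88 for Raver2, -4.70 for Bmf, -4.60 for Adgrg1 and -3.96 for Mgarp.

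In 3 named genes 1 of the 6 re-exposed arrays stood apart from the others. Chance does so in about 1 of 20 groups of 6 like arrays. These 6 were 3 tolerant and 3 recovered arrays, so that rate does not apply to them. Cx3cr1 was 8.12 on recovered array 3, where the nearest re-exposed array had 10.16. Srxn1 was 13.32 on recovered array 3, the nearest being 14.16, and Slc39a14 was 10.57 on tolerant array 3, the nearest being 11.29.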

How the results depend on the processing

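The 91 named genes were refitted under 27 alternatives. Direction never turned where a call was made: of 2455 values 2307 stayed on their side of the threshold, 138 lost a call and 10 gained one, and 40 genes kept theirs in every alternative. Without the replicate block 2323 genes differed between re-exposed and acute cells (1318 higher, 1005 lower, and 1032 not called between rests), 4641 between tolerant and acute, 418 between recovered and acute and 4213 between recovered and tolerant cells; higher calls then made up 56.7%, against 50.8%. With no filter on dim probes 1098 genes differed between recovered and acute cells.

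Leaving out 1 array gave 3124 (without acute array 2) to 6271 pooled calls, with 1611 to 3169 higher, 1513 to 3102 lower and 968 to 2873 not called between rests. It gave 6576 to 9489 calls for tolerant against acute, 767 to 2232 for recovered against acute and 6497 to 9281 for recovered against tolerant cells. Leaving out 1 experiment gave 1678 (without experiment 2) to 3735 pooled calls, with 808 to 1774 higher, 870 to 1961 lower and 528 to 1846 not called between rests. For the other comparisons in the same order it gave 4685 to 7021, 136 to 1063 and 5118 to 5785. These fits use fewer arrays.

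With the authors' values 22 named genes lost their call, among them Saa3 (adjusted p = 0.370), Il1b (0.455) and Tnf (0.795). The others were Saa1, Nhlh1, Ms4a4a, Cxcl3, Ccl12, Cmpk2, Ifit2, Ttk, Ehmt1, Hdc, Pdgfrb, Il6, Cxcl10, Mrc1, Lcn2, Socs3, Bmf, Angpt1 and Lhx2. Of the 22, 17 lay at 2.58, the lowest value of untreated array 3 in that table, where 135 of 169 genes at that value were well above background in the scanner file. With the authors' values on the 9 LPS arrays only, chosen after seeing the data, 7 lost their call, 6 of them among the 22. Those 6 were Nhlh1, Ttk, Mrc1, Lcn2, Angpt1 and Lhx2, and the remaining gene was Pax4. The cause of these losses was not tested.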
